A study of Homo sapiens with 7 samples.

Results

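The insulin-like growth factor (IGF) axis was examined at the side of the cell that receives and relays the signal. The set holds 10 genes, namely the receptors IGF1R, IGF2R and INSR, the adaptors IRS1, IRS2 and GRB10, the secreted relative IGFBP7, and the IGF2 mRNA-binding proteins IGF2BP1, IGF2BP2 and IGF2BP3. They were chosen by gene name among the non-control probes, and they are covered by 13 of the 42405 probes and are 10 of the 34809 gene names on the array. All 10 names are listed by RefSeq (GRCh38.p14). The samples were ACHN cells, an established human renal cell adenocarcinoma line, carrying either the pBabe-hygro retroviral empty vector (ACHN-EV, 4 samples, EV 1 to EV 4) or the same vector with human HOTAIR cDNA (ACHN-HOTAIR, 3 samples, HOTAIR 1 to HOTAIR 3), so that both groups share the vector and its hygromycin selection. HOTAIR is a long non-coding RNA transcribed from the HOXC cluster. Whether the samples of a group were separate transductions, cultures or clones is not given in the sources used here, and the p-values then measure only the spread between these samples, which may be technical.

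IGF1R is a tyrosine kinase receptor that IGF1 and IGF2 activate, and INSR is its close relative for insulin. Activated receptors phosphorylate IRS1 and IRS2, which recruit PI3 kinase and so switch on AKT, whereas GRB10 binds the activated receptors and dampens their signal. IGF2R, the large mannose 6-phosphate receptor, has no kinase and carries IGF2 to lysosomes for destruction. The 3 IGF2BP proteins act inside the cell, where they bind IGF2 and many other mRNAs and affect their stability, location and translation, and they are abundant in the embryo and in many carcinomas. In these arrays the question was which of these genes differed between cells with and without added HOTAIR, in which the soluble binding protein IGFBP2 was higher.

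The probes that carry the results are given here by their first 30 bases of 60, 5′ to 3′ as the array files list them, because each value below is the signal of that one stretch of the transcript. IRS2 is shown as the gene whose groups separated, GRB10 for its pair of probes, IGF1R as the receptor, INSR and IGF2BP1 as the genes that were not measurable, IGF2BP3 and the first IGF2BP2 probe as the measured mRNA-binding proteins, and PAPPA as the protease gene described further on.
IGF1R, A_23_P417282: aaatcaaaccagaaggcgggatggaatgga
INSR, A_33_P3335725: attttttcaatgttttcctacaagagccaa
IRS2, A_24_P154037: gatggttcgtgttcatactgcagcttaaaa
GRB10, A_24_P235266: tctttggctcgtgaacctaattgtaaactt
GRB10, A_23_P122863: gaaaataaactggaatgatcatctatggct
IGF2BP1, A_23_P83498: tcttagcaaaacaatagataaattaggtag
IGF2BP2, A_23_P250156: aaatgtggaggaaagtagaaatttaccaag
IGF2BP3, A_23_P19987: aacaaaaggctacatttccatggggccagc
PAPPA, A_33_P3599591: ggtatttctaattaatatgatgttgaaacc

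The other IGF2BP2 probe, A_33_P3242973, is shown in full because its place in the genome is not that of the gene.
IGF2BP2, A_33_P3242973: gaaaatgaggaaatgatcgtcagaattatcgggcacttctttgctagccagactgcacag
The array annotation (hg19) puts this probe on the plus strand at chr12:42682219-42682278, while it puts A_23_P250156 on the minus strand at chr3:185362047-185362106. On the array the chromosome 12 position lies between probes of YAF2 and ZCRB1, and the RefSeq table lists a pseudogene of IGF2BP2, IGF2BP2P1, between the same 2 genes. Of the 3 reading frames of the 60 bases, 1 has no stop codon. Whether the probe matches transcripts of IGF2BP2, of its copy or of both was not tested. No 20-base word of any of the 13 probes occurs in another probe of the array. The array annotation gives positions without exons or UTRs, which were not analysed here.

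All values are log2 of the processed spot intensity minus the array's 75th percentile, so that 0 is the level that 25% of the spots exceeded. That percentile lay between 523 and 649 intensity units on the EV arrays and between 552 and 640 on the HOTAIR arrays, with 48.7% to 52.1% of probes well above background and 0 saturated spots. limma was run on the 20419 probes whose signal was well above background throughout the EV group, throughout the HOTAIR group, or in both. EV 2 stood apart from the other arrays on the first principal component (51.8% of the variance), with a score of 74.0 against -18.1 to -8.50 for the other EV arrays, and HOTAIR 3 stood on the same side of its group with 21.1 against -29.4 and -21.3. All EV arrays sat in 1 row of the slide and all HOTAIR arrays in the other, and an effect of the row cannot be told apart from that of the group. The HOTAIR probe was well above background on 3 of 3 HOTAIR arrays and on 0 of 4 EV arrays. Of 8 renal epithelial markers 7 were tested and 0 were called by limma, and 0 of 5 fibroblast markers were well above background on any array. For EPCAM every HOTAIR array lay below every EV array (log2 difference -0.23, adjusted p = 0.881 by limma), as for 3.5% of all tested probes. The array annotation places the brightest probe named KRT8 on chromosome 8 and that named KRT18 on chromosome Y, and gives that named VIM no position. Whether these probes read the named genes was not tested.

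Of the 10 genes, 8 were measured in both groups while the other 2, INSR and IGF2BP1, had no array with a signal well above background. Among the 8 measured genes, limma called 0 at an adjusted p of 0.05 (0 of 11 probes), where it called 0.167% of all tested probes. The rank product also called 0 of the 8. At an unadjusted p under 0.05 there was 1 member probe, that of IRS2 (9.09% of 11), against 5.85% of all tested probes. Of the 8 genes 4 had a positive and 4 a negative difference (ACHN-HOTAIR minus ACHN-EV), with a median of -0.0066 and a median size of 0.12 on the log2 scale. Over all 16664 tested genes the median was 0.011 and the median size 0.13. The 95% intervals of the 11 probes reached from 0.673-fold to 1.56-fold, so that each of them excluded a 2-fold change in either direction at this spread between arrays.

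**Figure D1:**
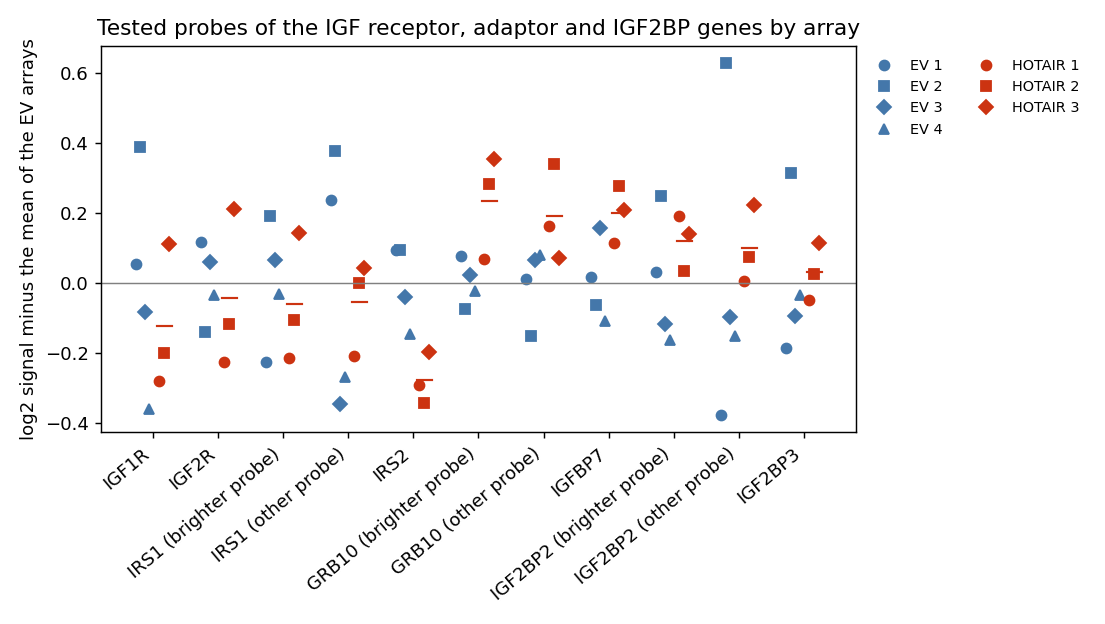
Log2 signal of the 11 tested probes on each array (vertical axis), after subtraction of the mean of the EV arrays for that probe, with EV arrays in blue, HOTAIR arrays in red, a marker shape for each sample number and a red line at the mean of the HOTAIR arrays. The 3 HOTAIR arrays lie below all 4 EV arrays for IRS2, and the groups overlap for the other 10 probes, with EV 2 the highest EV array in 7 of the 11.

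The measured receptors, IGF1R and IGF2R, gave no difference beyond the spread between arrays. IGF1R (plus strand, chr15:99507366-99507425) had log2 signals of -0.27, 0.065, -0.41 and -0.68 on EV 1 to EV 4 and of -0.60, -0.52 and -0.21 on HOTAIR 1 to HOTAIR 3. The groups overlapped over most of their range, and EV 2 was the highest of the 7 arrays while EV 4 was the lowest. The means were -0.32 ± 0.31 (SD, n = 4) and -0.45 ± 0.21 (SD, n = 3). The log2 difference was -0.12 (SE 0.19, 95% interval -0.57 to 0.33, adjusted p = 0.993 by limma), which became 0.0065 without EV 2. A change of IGF1R within this interval is not excluded by these 7 arrays. The interval is not the size of change that limma could call after adjustment over all probes.

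IGF2R (plus strand, chr6:160527114-160527173) had 0.73, 0.47, 0.67 and 0.58 on EV 1 to EV 4 and 0.39, 0.50 and 0.82 on HOTAIR 1 to HOTAIR 3. The HOTAIR arrays spanned the EV arrays on both sides, with HOTAIR 1 the lowest and HOTAIR 3 the highest of the 7. The log2 difference was -0.044 (SE 0.14, 95% interval -0.36 to 0.28, adjusted p = 0.993 by limma), and it became 0.047 without HOTAIR 1. M6PR, the small cation-dependent mannose 6-phosphate receptor, differed by -0.092 on the log2 scale (adjusted p = 0.993 by limma).

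INSR (minus strand, chr19:7112351-7112410) had no signal well above background on the 7 arrays. Its log2 signals were -7.47, -6.95, -7.03 and -7.31 on EV 1 to EV 4 and -6.06, -7.20 and -7.36 on HOTAIR 1 to HOTAIR 3, each the mean of 2 spots. HOTAIR 1 gave the highest reading, but the 2 spots of this probe differed by an SD of up to 0.61 within an array, and readings at this level have no order. INSRR, the insulin receptor-related receptor, was not tested either.

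The adaptors held the largest differences of the set in both directions. IRS2 (minus strand, chr13:110406645-110406704) had log2 signals of 2.51, 2.51, 2.38 and 2.27 on EV 1 to EV 4 and of 2.13, 2.07 and 2.22 on HOTAIR 1 to HOTAIR 3. Every HOTAIR array lay below every EV array, with a narrow gap between HOTAIR 3 and EV 4. The ACHN-EV mean was 2.42 ± 0.12 (SD, n = 4) and the ACHN-HOTAIR mean 2.14 ± 0.074 (SD, n = 3). The log2 difference of -0.28 (SE 0.11, 95% interval -0.53 to -0.022) corresponds to 1.21-fold less RNA with HOTAIR, and in bulk RNA a lower share of expressing cells cannot be told apart from less RNA per cell. It had an unadjusted p of 0.0369 and an adjusted p of 0.785 by limma, and the exact permutation test of the means over the 35 splits of the arrays gave p = 0.0571 (two-sided, smallest possible 0.0286). IRS2 was the only member probe whose groups did not overlap, 1 of 11, against 7.7% of all tested probes (4.2% with the HOTAIR arrays higher and 3.5% with them lower). The difference stayed between -0.33 and -0.24 with any single array left out and was not called in any of these fits, the lowest adjusted p being 0.539.

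IRS1 has a pair of probes on chromosome 2 that lie 3530 bases apart on the minus strand. The brighter one, at chr2:227600148-227600207, had -1.57, -1.15, -1.28 and -1.38 on EV 1 to EV 4 and -1.56, -1.45 and -1.20 on HOTAIR 1 to HOTAIR 3. The HOTAIR arrays fell inside the range of the EV arrays, and the log2 difference was -0.059 (SE 0.14, 95% interval -0.39 to 0.27, adjusted p = 0.993 by limma). The other probe, at chr2:227596618-227596677 nearer the 3′ end, differed by -0.056 on the log2 scale (SE 0.20, 95% interval -0.53 to 0.42, adjusted p = 0.993 by limma). Both probes changed sign without EV 2, to 0.0043 and 0.070, and the brighter one was 0.018 without HOTAIR 1. IRS4, a further relative, was not tested.

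GRB10, the dampening adaptor, also has a pair of probes, which lie 2524 bases apart on the minus strand of chromosome 7. At chr7:50657813-50657872 the log2 signals were 2.23, 2.08, 2.18 and 2.13 on EV 1 to EV 4 and 2.22, 2.44 and 2.51 on HOTAIR 1 to HOTAIR 3. HOTAIR 2 and HOTAIR 3 lay above all EV arrays, and HOTAIR 1 fell just short of EV 1. The log2 difference was 0.23 (SE 0.11, 95% interval -0.026 to 0.49, adjusted p = 0.906 by limma). The exact permutation test gave p = 0.0571 (two-sided).

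The other GRB10 probe, at chr7:50660337-50660395, is spotted 10 times on each array and had 2.16, 2.00, 2.21 and 2.23 on EV 1 to EV 4 and 2.31, 2.49 and 2.22 on HOTAIR 1 to HOTAIR 3. Here HOTAIR 1 and HOTAIR 2 lay above all EV arrays and HOTAIR 3 fell just short of EV 4, so that the probes disagreed on which HOTAIR array overlapped. The log2 difference was 0.19 (SE 0.12, 95% interval -0.080 to 0.46, adjusted p = 0.946 by limma). The 10 spots differed by an SD of 0.034 to 0.065 within an array, while the arrays differed by an SD of 0.11 within the EV group and of 0.14 within the HOTAIR group. The spread between samples was thus larger than the spread between spots. Without EV 2 the differences of the 2 probes were 0.21 and 0.14.

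IGFBP7 is a secreted protein that shares a domain with the IGF-binding proteins and binds IGFs weakly. Its probe (minus strand, chr4:57897423-57897482) had log2 signals of 3.93, 3.85, 4.07 and 3.81 on EV 1 to EV 4 and of 4.03, 4.19 and 4.12 on HOTAIR 1 to HOTAIR 3. HOTAIR 2 and HOTAIR 3 lay above all EV arrays and HOTAIR 1 lay just below EV 3. The means were 3.92 ± 0.12 (SD, n = 4) and 4.12 ± 0.081 (SD, n = 3), and they differed by 0.20 on the log2 scale (SE 0.11, 95% interval -0.058 to 0.46, adjusted p = 0.932 by limma). The exact permutation test gave p = 0.0857 (two-sided).

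Of the IGF2 mRNA-binding proteins, IGF2BP2 and IGF2BP3 were measured on all 7 arrays and IGF2BP1 on none. IGF2BP1 (plus strand, chr17:47132379-47132438) is spotted 10 times, and its log2 signals were -6.81, -6.74, -6.83 and -6.84 on EV 1 to EV 4 and -6.75, -6.82 and -6.95 on HOTAIR 1 to HOTAIR 3. None of these was well above background, and the spots within an array differed by an SD of 0.46 to 0.83.

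IGF2BP3 (minus strand, chr7:23350769-23350828), an mRNA-binding protein known from aggressive renal carcinoma, had 2.49, 2.99, 2.58 and 2.64 on EV 1 to EV 4 and 2.62, 2.70 and 2.79 on HOTAIR 1 to HOTAIR 3. EV 2 was the highest of the 7 arrays, and the HOTAIR arrays lay between it and the lowest EV array. The log2 difference was 0.031 (SE 0.14, 95% interval -0.30 to 0.36, adjusted p = 0.993 by limma). The SD of the EV arrays was 0.22 with EV 2 and 0.076 without it, and the difference without EV 2 was 0.14.

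IGF2BP2 at A_23_P250156 had log2 signals of 0.88, 1.10, 0.73 and 0.68 on EV 1 to EV 4 and of 1.04, 0.88 and 0.98 on HOTAIR 1 to HOTAIR 3. EV 2 was again the highest array, and the other EV arrays lay below the lowest HOTAIR array. For EV 1 this was by a very narrow gap (0.877 against 0.880 on HOTAIR 2). The log2 difference was 0.12 (SE 0.13, 95% interval -0.18 to 0.42, limma adjusted p = 0.993), and 0.20 without EV 2. The single-spot probe placed on chromosome 12 had -3.41, -2.41, -3.13 and -3.19 on EV 1 to EV 4 and -3.03, -2.96 and -2.81 on HOTAIR 1 to HOTAIR 3. It differed by 0.10 on the log2 scale (SE 0.23, 95% interval -0.44 to 0.64, limma adjusted p = 0.993), and by 0.31 without EV 2. On both probes EV 2 lay above every other array.

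**Figure D2:**
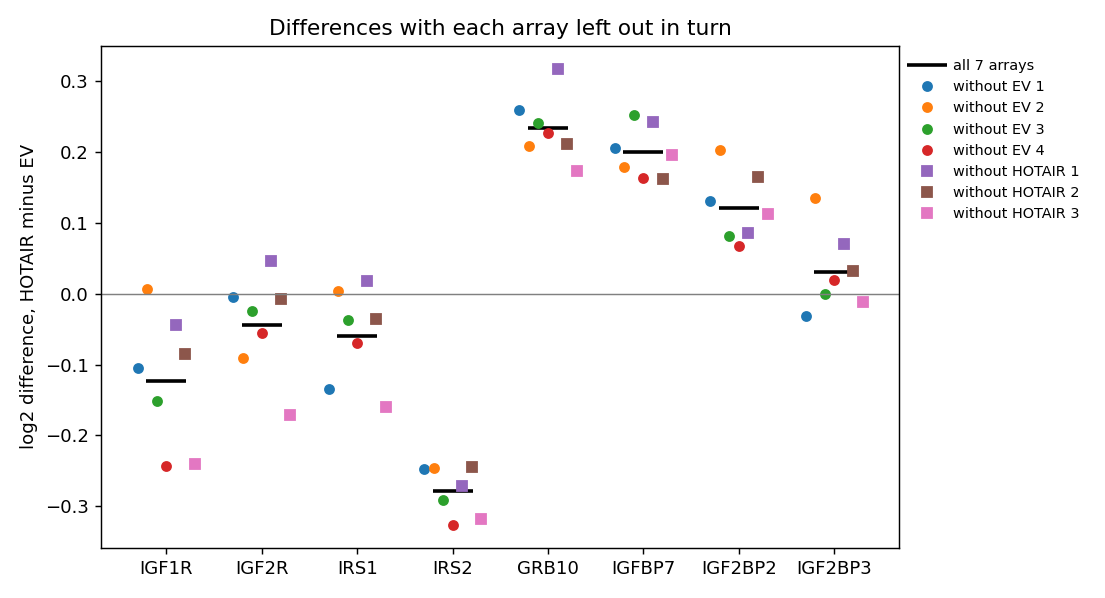
Log2 difference (ACHN-HOTAIR minus ACHN-EV, vertical axis) of the brightest tested probe of each of the 8 measured genes, with all 7 arrays (black line) and with each array left out in turn (coloured points). IRS2 stays below 0 (-0.33 to -0.24), while GRB10 (0.17 to 0.32), IGFBP7 (0.16 to 0.25) and IGF2BP2 (0.067 to 0.20) stay above 0, and IGF1R, IGF2R, IRS1 and IGF2BP3 change sign.

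EV 2 and HOTAIR 3 often held the highest value of their group in these genes. EV 2 was the highest EV array for 7 of the 11 member probes (63.6%), compared with 33.7% of all tested probes. HOTAIR 3 was the highest HOTAIR array for 8 of the 11 (72.7%), compared with 37.9% of all tested probes, and HOTAIR 1, which did not stand apart, was the lowest for 8 of the 11 (29.6% of all). EV 2 was the lowest EV array for 3 of the 11 (37.8% of all) and HOTAIR 3 the lowest HOTAIR array for 1 of the 11 (42.9% of all). The 11 probes share their arrays and some share a gene, so that these counts are a description, and what sets EV 2 and HOTAIR 3 apart was not tested here.

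Over the 7 arrays, the genes whose log2 signal followed that of IGF1R most closely were HOXB9, a homeobox gene (Pearson r = 0.994), YES1, a SRC-family kinase (0.992), and PARVA, an actin-binding protein of focal adhesions (0.989). Their log2 differences were -0.079, -0.14 and -0.083. For IRS2 they were ARID3B, a DNA-binding protein (r = 0.991), ANKLE2, a nuclear envelope protein (0.988), and PPAP2B, a lipid phosphatase (0.988), with log2 differences of -0.30, -0.29 and -0.26 and the lowest adjusted p of 0.715 by limma. These are the highest of the correlations with 16664 genes over 7 arrays that share their depth and the position of EV 2, and they are given with no test.

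**Figure D3:**
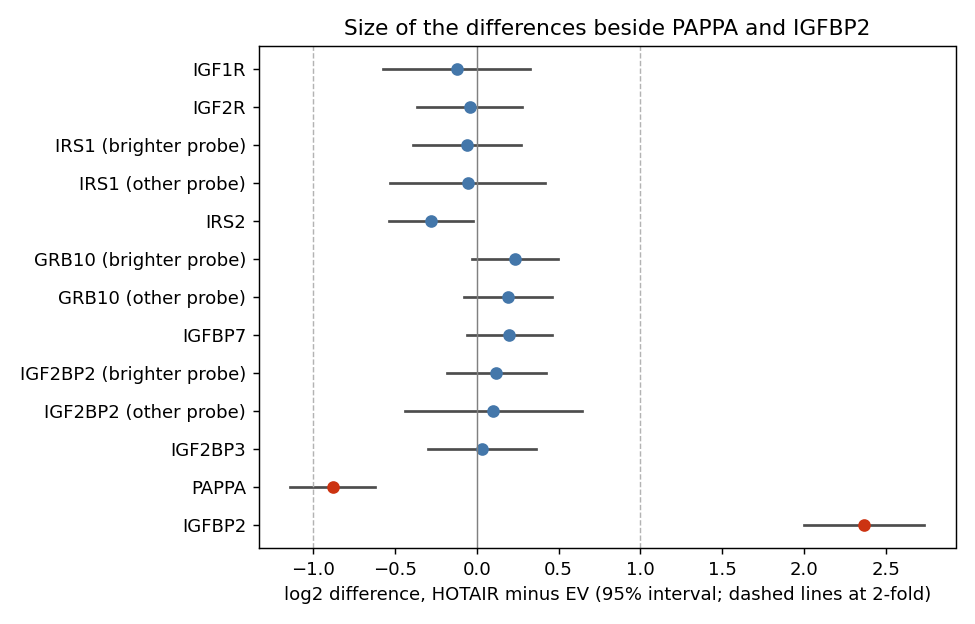
Log2 difference (ACHN-HOTAIR minus ACHN-EV, horizontal axis) with its 95% interval for the 11 tested probes of the set (blue) and for PAPPA and IGFBP2 (red), with dashed lines at a 2-fold change. The 11 intervals lie between -0.57 and 0.64, inside the dashed lines, while the interval of IGFBP2 lies outside them (2.00 to 2.73) with this background handling, its difference being 1.22 (SE 0.12) with normexp background correction.

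The rest of the axis was described by lists of its ligands, binding proteins and proteases, of the signalling proteins behind the receptors, and of mRNAs that IGF2BP proteins are known to bind. Of 14 ligands, binding proteins and proteases 8 were tested, and limma called IGFBP2 higher and PAPPA lower in the ACHN-HOTAIR cells (0.132% of all tested probes were called higher and 0.0343% lower). IGF1 and IGF2, the ligands of IGF1R, were not tested. The log2 differences of this list had a median of 0.19. For IGFBP2 the log2 difference was 2.37 (SE 0.16, 95% interval 2.00 to 2.73, adjusted p = 0.00162 by limma), and its interval did not meet that of any member probe. With normexp background correction it was 1.22 (SE 0.12, adjusted p = 0.0233 by limma). The largest uncalled difference of the list was that of STC1, stanniocalcin 1, which inhibits pappalysin proteases (0.81, SE 0.29, adjusted p = 0.735 by limma).

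PAPPA, pappalysin 1, is a secreted protease that cuts IGFBP4 and thereby frees IGF near its receptor. Its probe (plus strand, chr9:119164007-119164066) had log2 signals of -1.37, -1.45, -1.27 and -1.47 on EV 1 to EV 4 and of -2.40, -2.24 and -2.16 on HOTAIR 1 to HOTAIR 3. The groups were well apart, with all EV arrays close together. The means were -1.39 ± 0.090 (SD, n = 4) and -2.27 ± 0.12 (SD, n = 3), and the log2 difference was -0.88 (SE 0.11, 95% interval -1.14 to -0.62, adjusted p = 0.0424 by limma), which is 0.543-fold. The rank product placed it 23rd among the lower probes, with an estimated proportion of false positives of 0.0283 (limit 0.05). That proportion came from shuffling the probes within each array, which does not keep each probe's own spread, and it may be too low. IGFBP4, the substrate of PAPPA, differed by -0.16 on the log2 scale (SE 0.12, adjusted p = 0.983 by limma).

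The call of PAPPA was close to the threshold and was lost when any single array was left out. The adjusted p by limma was 0.169 without EV 1, 0.0614 without EV 2, 0.160 without EV 3, 0.101 without EV 4, 0.306 without HOTAIR 1, 0.281 without HOTAIR 2 and 0.142 without HOTAIR 3. The log2 difference stayed between -0.93 and -0.81 in these fits. With normexp background correction the adjusted p by limma was 0.0879 and the log2 difference -0.73.

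**Figure D4:**
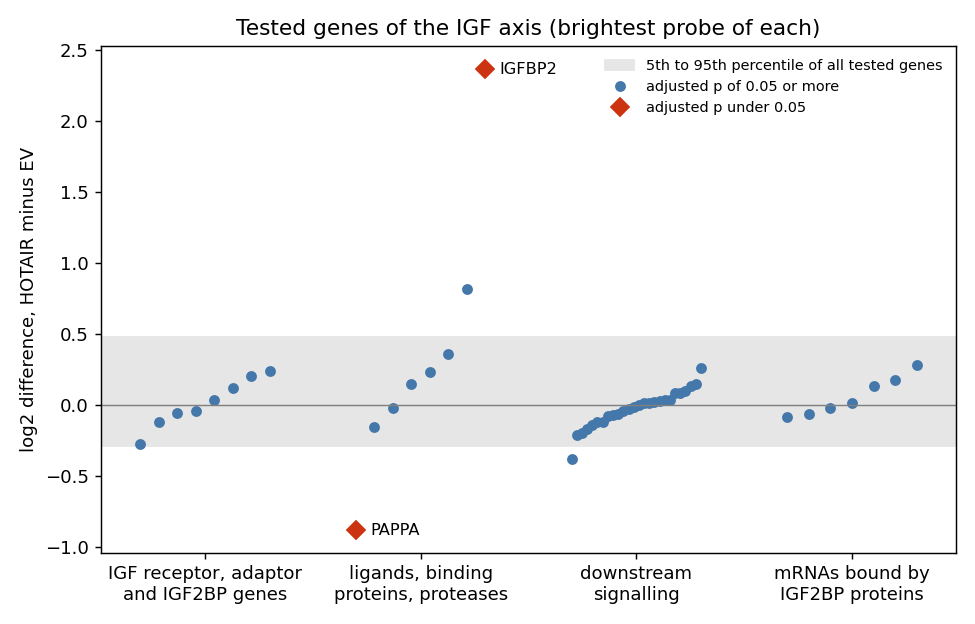
Log2 difference (ACHN-HOTAIR minus ACHN-EV, vertical axis) of the brightest tested probe of each gene, sorted within the set and within the 3 lists along the horizontal axis, with the 5th to 95th percentile of all tested genes (-0.29 to 0.48) in grey. IGFBP2 (2.37) and PAPPA (-0.88) are the 2 genes called by limma (red), and the 8 measured genes of the set lie inside the grey band.

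Of the 28 signalling proteins behind the receptors 26 were tested and limma called 0 (0.167% of all tested probes), with 0 at an unadjusted p under 0.05 (5.85% of all tested probes). Their log2 differences ran from -0.38 to 0.26 with a median of -0.0089, 12 positive and 14 negative. The largest was that of PIK3CB, a catalytic subunit of PI3 kinase, with -2.70, -2.08, -2.84 and -2.40 on EV 1 to EV 4 and -2.84, -2.99 and -2.82 on HOTAIR 1 to HOTAIR 3. Only EV 3 reached into the range of the HOTAIR arrays, and the difference of -0.38 (SE 0.19) had an adjusted p of 0.922 by limma. SOCS3, a cytokine-induced inhibitor of receptor signalling, followed with 0.26 (SE 0.30) and PDPK1, the kinase that activates AKT, with -0.21 (SE 0.27), both with an adjusted p of 0.993 by limma. In both of these genes EV 2 was the highest array.

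Of the 10 mRNAs known to be bound by IGF2BP proteins 7 were tested and limma called 0 (0.167% of all tested probes), with 0 at an unadjusted p under 0.05 (5.85% of all tested probes). Their log2 differences ran from -0.086 to 0.28 with a median of 0.015. ABCB1, a drug efflux pump, had 0.28 (SE 0.16, adjusted p = 0.939 by limma), and the brightest probe named ACTB, cytoplasmic actin, had 0.13 (SE 0.15, adjusted p = 0.993 by limma). The array annotation places this probe on the minus strand at chr1:224050852-224050911, and whether it reads ACTB itself was not tested. The arrays measured the amount of these mRNAs and not their binding.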

How the data were processed

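RNA of 4 ACHN-EV and 3 ACHN-HOTAIR samples was labelled with Cy3 and hybridised to Agilent SurePrint G3 arrays of 1 colour, 1 sample per array. The authors deposited the spot intensity as Agilent Feature Extraction 10.7.3.1 wrote it, background-subtracted and not scaled between arrays, and a table of 62969 of the 62976 spots whose values lay within 0.498% of it. The study ranked genes by the rank product.

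The log2 of the deposited intensity was taken, each array's 75th percentile over non-control spots was subtracted, outlier spots (408 to 600 per array) were left out and spots of a probe were averaged. A probe counted as well above background on an array if at least 0.5 of its spots did. ACHN-HOTAIR was compared with ACHN-EV over 20419 probes with limma 3.58.1 in R 4.3.3 (lmFit, eBayes, Benjamini-Hochberg adjustment, threshold 0.05). For single genes the group means were also permuted exactly over the 35 splits of the arrays. A gene with several probes is represented by the brightest tested one. Levels of different probes were not compared.

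The genes, lists and tests were chosen with earlier results of these data known. Named beside the set are IGFBP2, HOTAIR, list genes that were called, the 3 tested genes of each list with the largest difference, and the 3 genes most like IGF1R and IRS2. One gene that this rule names is not reported here. INSRR, IRS4, IGF1, IGF2, IGFBP4 and M6PR are named for their place in the lists or as relatives, after their values were seen. Endothelial markers (0 of 5 tested) and blood markers (1 of 5 tested, CD14, not called) were checked too. In each of these lists 2 of the 5 genes were well above background on some array. Arrays were also simulated with the spread of the 20419 probes of this comparison. On them limma recovered 0% of 200 probes changed by a log2 difference of 0.5, 49% at a difference of 1 and 87% at 2. It made 0, 7 and 9 false calls there, and called 0 with no change. The simulated noise was independent between probes, without the shift that EV 2 and HOTAIR 3 showed across many probes. The rates on the real arrays may therefore differ.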

Additional observations from a re-analysis of the deposited data

How the results depend on the processing

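None of the 8 measured genes was called under any of the alternatives run, and 140 of their 147 values kept their direction. Those that reversed did so with 1 array left out: IGF1R was 0.0065 without EV 2 (range -0.24 to 0.0065), IRS1 was 0.0043 without EV 2 and 0.018 without HOTAIR 1 (-0.16 to 0.018), IGF2R was 0.047 without HOTAIR 1 (-0.17 to 0.047), and IGF2BP3 was -0.031 without EV 1, -0.00092 without EV 3 and -0.011 without HOTAIR 3 (-0.031 to 0.14). The lowest adjusted p of any measured gene was 0.114, for IRS2 when limma weighted the arrays, which was chosen after seeing the data. Over all 20419 probes limma called 34, and 9 to 31 with 1 array left out (9 without EV 1, 31 without EV 2). It called 12 with normexp background correction, 14 of all probes with no filter, 22 of the probes above background on all arrays, 20 with trend and robust moderation and 324 with array weights. The rank product called 86 and the Mann-Whitney U test 0, since its smallest p is 0.0571. Quantile normalization, other percentiles and the authors' table gave 25 to 36. With the replicate block, over the arrays numbered 1 to 3, limma called 0 probes, and neither IGFBP2 (adjusted p = 0.127) nor PAPPA (0.451) was called. Deviations from the group mean correlated at 0.386, -0.368 and -0.406 between the arrays numbered 1, 2 and 3. The EV array most like HOTAIR 1 was EV 1, that most like HOTAIR 2 was EV 1 (0.392) and that most like HOTAIR 3 was EV 2 (0.619). Whether the numbers pair the samples cannot be decided from these correlations, since EV 2 and HOTAIR 3 stood apart from their groups. PAPPA was called in 5 of the 11 settings other than leaving out single arrays, array weights among them. The rank product is not counted in these settings, and it also called PAPPA (proportion of false positives 0.0283, limit 0.05). In an earlier analysis of these data its false positives were not held at each probe's own spread. That limits both this call and the 86 calls of the rank product. The median difference over all tested probes was 0.013 as reported and 0.056 in the authors' unscaled table. On the simulated arrays, 7 as here, a log2 change of 0.5 was below what limma could call. Dim probes gave no levels, and the causes of these shifts were not tested.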
